A study of Homo sapiens with 12 samples.

Results

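The comparison described here asks whether EDTA acted on the transcriptome of Addback cells as it did on that of Vector cells. It was formed for each gene as the difference between EDTA and NA libraries in Addback minus the difference between EDTA and NA libraries in Vector, on the log2 scale, and is called the response difference. A positive value means that the gene stood relatively higher with EDTA in Addback than in Vector. The members were 8 RNA-seq libraries of 12 in the series, 2 for each of the 4 groups Vector NA, Vector EDTA, Addback NA and Addback EDTA. They were chosen by their labels, and the 4 libraries of a further derivative, B4-4, served only to estimate the spread between replicates. All came from MCF10-A, an immortalized human mammary epithelial line that is not tumour-derived. The cells of every group, controls included, had been trypsinized and held for 3 hours without serum on poly-HEMA, a coating on which cells cannot attach. Horse serum at 5% is also among the recorded conditions of every group. What the label NA stands for, the dose and timing of EDTA, and the way Addback and B4-4 were made are stated by neither the labels nor the protocols. Nothing in the labels says that the 2 libraries of a group came from separate cultures, so p-values measure the spread between these libraries only, and that spread may be technical.

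EDTA binds divalent cations such as calcium and magnesium. Cadherins need calcium to bind their partners on neighbouring cells, and integrins need divalent cations to bind matrix. Epithelial cells that lose matrix contact are known to change stress, metabolic, cell cycle and differentiation programmes. Mammary basal cells rest on laminin through hemidesmosomes, which hold the integrin formed by ITGA6 and ITGB4, and are joined to each other by adherens junctions, desmosomes and nectins.

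Total counts of the 8 libraries ran from 17165326 to 22156173, and at least 99.866% of them fell in the 15749 genes tested. Basal epithelial markers summed to between 12437 and 18155 CPM (normalised read counts, scaled to the size of each library) in all 8 libraries, with each of the 12 markers detected in each, so the markers of the labelled cell type were present throughout. Luminal markers summed to between 1509 and 2915 CPM, nearly all from KRT7, KRT8 and KRT18, with GATA3 between 11.5 and 34.5 CPM, while PGR, KIT and ELF5 were at 0 or at most 0.185 CPM. Replicates correlated at 0.9911 or above in Vector NA, Vector EDTA and Addback NA and at 0.9769 in Addback EDTA (Pearson r of log2 CPM over genes). Addback EDTA replicate 2 was the only library that carried lane tag 7 in its label, the other 11 carrying lane tag 8. Of 10641 genes averaging at least 5 CPM, 241 differed at least 2-fold between the 2 Addback EDTA libraries, against 5, 13 and 9 between the replicates of Vector NA, Vector EDTA and Addback NA. The part of the lane in any result was not tested, and results that change without that library are given below with their value. The B4-4 replicates, which entered the estimate of the spread, correlated at 0.961 in NA and 0.9966 in EDTA. Of the same 10641 genes, 395 and 9 differed at least 2-fold between them. B4-4 NA replicate 1 correlated more with Vector NA replicate 1 (0.9737) than with its own replicate.

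EDTA did not act alike in the 2 derivatives. The response difference passed the threshold in 3818 of 15749 genes, or 24.2% (edgeR's quasi-likelihood test, an adjusted p under 0.05 by Benjamini-Hochberg). It was higher in 2113 genes, 13.4% of those tested, and lower in 1705, 10.8%. The called genes with at least a 2-fold response difference numbered 2006, or 12.7%, of which 947 (6.01%) were higher and 1059 (6.72%) lower. The median response difference was 0.005 over all genes tested, 0.93 over those called higher and -1.26 over those called lower. Each gene has 4 pairings of an EDTA with an NA library in each derivative. The 4 differences of Addback lay entirely above or below the 4 of Vector in 8824 genes, 56.0% of those tested, and in 3817 of the 3818 called genes, 24.2% of all genes tested. As these are bulk libraries, fewer cells of a type and less RNA per cell cannot be told apart. The count of calls depended on single libraries: it was 2147 without Vector NA replicate 1, 2138 without Vector NA replicate 2, 2445 without Vector EDTA replicate 1, 2183 without Addback NA replicate 1 and 2449 without Addback NA replicate 2. Without Addback EDTA replicate 2 it was 2912, and 3817 of the 3818 genes kept their sign.

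The called genes moved mostly in opposite directions. Taken within derivatives, EDTA changed 2666 genes in Addback (16.9%), 1361 higher (8.64%) and 1305 lower (8.29%), and 2416 genes in Vector (15.3%), 1002 higher (6.36%) and 1414 lower (8.98%). Both derivatives called 815 genes, which is 30.6% of the Addback calls and 33.7% of the Vector calls. Of these 815 genes, 694 (85.2%) went in opposite directions, 23 were higher in both and 98 lower in both. Among the 3818 genes with a called response difference, the fitted EDTA effects had opposite signs in 3568 (93.5%), against 59.7% of all genes tested. Those 3818 genes were selected on the difference between the 2 effects, which by itself favours opposite signs. Their share is therefore no independent finding. Among the 2113 higher genes, 647 were called with EDTA in Vector alone, 625 in Addback alone, 413 in both with opposite directions and 9 in both with the same direction, while 419 were called in neither. The 1705 lower genes divided in the same order into 461, 591, 281, 5 and 367. Over the 10641 genes with at least 5 CPM, the Addback and Vector effects, which share no library, had a Pearson r of -0.389. With Addback EDTA replicate 1 alone as the Addback EDTA group it was -0.345, and with replicate 2 alone -0.383. These coefficients run across genes, which are not independent replicates, and describe these libraries. The Addback count was 615 and 1082 without Addback NA replicate 1 or 2, 1128 without Addback EDTA replicate 2, and 4319 and 4272 without B4-4 NA replicate 1 or 2. The Vector count was 752 and 724 without Vector NA replicate 1 or 2, 858 and 1540 without Vector EDTA replicate 1 or 2, and 4020 and 3945 without B4-4 NA replicate 1 or 2.

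**Figure D1:**
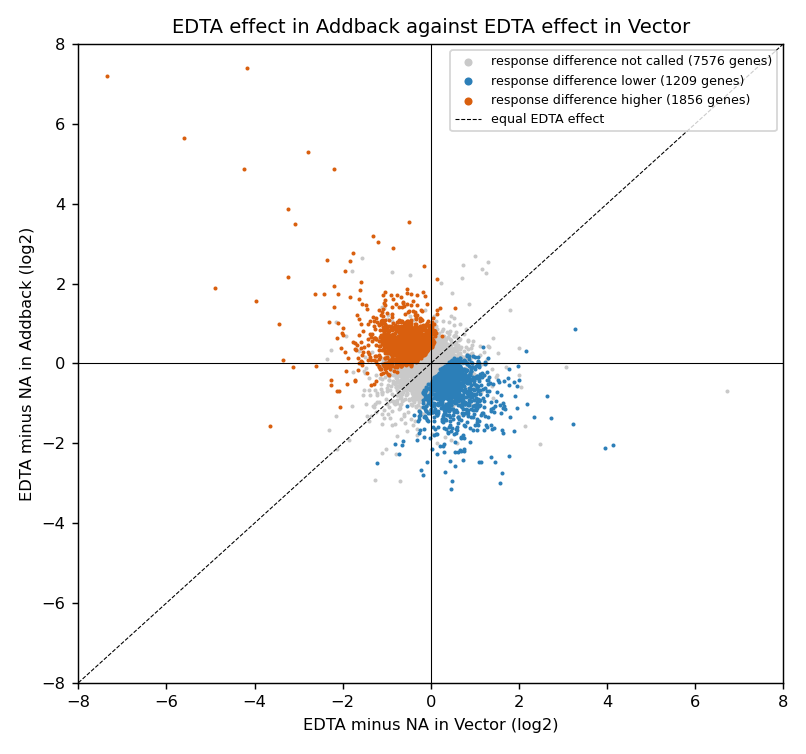
Fitted log2 EDTA effect in Vector (horizontal axis) and in Addback (vertical axis), with each point a gene of at least 5 CPM (10641 genes). The 1856 genes with a called higher response difference lie mostly to the upper left and the 1209 called lower mostly to the lower right. Few of either lie near the dashed line of equal effects, which follows in part from calling genes on their difference.

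The levels behind the response difference were set by both treatments. Addback and Vector differed in 5681 genes in NA (36.1%), 2825 of them higher (17.9%) and 2856 lower (18.1%) in Addback. In EDTA they differed in 4728 genes (30.0%). Of the 3818 genes with a called response difference, 1642 differed between derivatives in NA and not in EDTA, 1140 in EDTA and not in NA, 599 in both with opposite signs, 221 in both with the same sign, and 216 in neither. The derivatives lay farther apart in NA than in EDTA in 2203 of the called genes and farther apart in EDTA in 1615. The NA count was 3188 and 3137 without Vector NA replicate 1 or 2 and 3224 and 3550 without Addback NA replicate 1 or 2, and the EDTA count was 2718 without Vector EDTA replicate 1 and 3144 without Addback EDTA replicate 2. For the genes named below, calls of the EDTA effect within a derivative were less stable than those of the response difference. Most of these genes were chosen by their response difference, so this does not rank the measures in general. Of 96 genes named with values below, 74 were called with EDTA in Addback, of which 42 stayed called with any 1 library left out. In Vector 74 were called and 46 stayed called. All of these kept their sign in every such fit.

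Genes of the outer layers of stratified epithelium were among those with the largest positive response differences. Of 21 tested genes of squamous differentiation, 15 were higher, 2 lower and 4 not called, with a median of 1.88 against 0.005 for all genes. Of 10 tested kallikrein proteases and inhibitors, which control the shedding of surface cells, 10 were higher. Their median fitted value was 9.98, and 6.41 with the 3 genes that had a group without any count (KLK6, KLK8 and SPINK6) placed at the floor of 3 counts over the group. Of 16 secreted defence and S100 genes, 10 were higher and none lower, with a median of 1.69. The shares of all genes tested were 13.4% higher and 10.8% lower. Fitted effects were above 0 in Addback and below 0 in Vector for 16 of the 21 squamous genes, 10 of the 10 kallikrein genes and 10 of the 16 secreted genes, against 30.5% of all genes tested. With 1 library left out, the higher genes ranged from 12 to 16, from 7 to 10 and from 7 to 12 in these lists.

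TGM1, the transglutaminase that cross-links the cornified envelope (chromosome 14, 24249114 to 24264432, GRCh38), measured 518 and 513 CPM in Vector NA, 45.4 and 49.9 in Vector EDTA, 39.4 and 37.4 in Addback NA and 73.0 and 79.2 in Addback EDTA. Vector NA was thus far above the other groups, no 2 groups overlapped, and EDTA libraries were low in Vector and high in Addback. The response difference was 4.42 ± 0.22 (SE; edgeR adjusted p = 5.42e-07). KRT16, a keratin of stressed and proliferating epidermis, had 277 and 283 CPM in Vector NA, 55.8 and 66.7 in Vector EDTA, 19.5 and 17.7 in Addback NA and 60.6 and 81.5 in Addback EDTA. Its response difference was 4.13 ± 0.20 (SE), and the EDTA groups overlapped while the NA groups did not. SPRR1B, a small proline-rich protein of the cornified envelope, had 93.6 and 94.97 CPM in Vector NA, 20.8 and 20.1 in Vector EDTA, 0.280 and 0.488 in Addback NA and 9.999 and 13.1 in Addback EDTA. Here Addback was low under both treatments, and the response difference of 7.09 ± 0.51 was made of log2 effects of 4.88 in Addback and -2.21 in Vector. KRT6A, a keratin partner of KRT16, followed at 1.88 ± 0.14. Keratins and SPRR genes have near-identical relatives with which they may share reads. The 2 genes of the squamous list that were lower were GRHL3, a transcription factor of barrier formation, and PPL, periplakin.

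The kallikrein genes lie together on chromosome 19, KLK5 at 50943303 to 50953093 and KLK7 at 50976482 to 50984099. KLK7, a chymotrypsin-like protease that cuts desmosomal proteins of the skin surface, fell in Vector from 55.7 and 57.6 CPM in the NA libraries to 0.278 and 0.399 in the EDTA libraries. In Addback it rose from 2 counts in the 2 NA libraries together to 319 counts in the 2 EDTA libraries, a ratio of 167 with an exact 95% counting interval of 45.9 to 1390. KLK5, a trypsin-like protease that activates other kallikreins, fell from 16.6 and 17.2 CPM to 0.324 and 0.354 in Vector and rose from 4 to 202 counts in Addback, a ratio of 52.9 (20.3 to 196). Fitted response differences of 14.56 for KLK7 and 11.24 for KLK5 depend on the prior count at such low levels. The intervals cover counting error only, and for both genes Addback EDTA stayed below Vector NA in each library. PI3, the elastase inhibitor elafin, had 117 and 124 CPM in Vector NA, 3.43 and 4.61 in Vector EDTA, 6.32 and 6.23 in Addback NA and 17.2 and 29.6 in Addback EDTA, a response difference of 6.80 ± 0.81.

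Several other genes with large positive values, from the secreted list or picked by size or abundance, are given here. MUC16, a membrane mucin, fell from 19.6 and 21.2 CPM to 0.927 and 1.33 with EDTA in Vector and rose from 4 to 687 counts in Addback, a ratio of 180 (exact 95% counting interval 69.9 to 662). The 2 Addback EDTA libraries differed, at 5.91 and 33.3 CPM, and the library of lane tag 7 was the higher. AZGP1, a secreted zinc-binding glycoprotein, fell from 23.8 and 23.0 to 1.11 and 1.33 CPM in Vector and rose from 6 to 175 counts in Addback, a ratio of 30.5 (13.8 to 84.4). S100P, a calcium-binding protein, had 13.2 and 12.7 CPM in Vector NA, 1.81 and 1.91 in Vector EDTA, 0.168 and 0.379 in Addback NA and 4.85 and 17.3 in Addback EDTA. Its response difference was 8.09 ± 0.82 (edgeR adjusted p = 1.40e-04), with no overlap between the NA and EDTA libraries of either derivative. CD24, a surface glycoprotein, had 498 and 481 CPM in Vector NA, 61.8 and 54.2 in Vector EDTA and 22.3 and 21.6 in Addback NA, but 54.0 and 440 in the 2 Addback EDTA libraries. Its response difference of 6.57 ± 1.24 (edgeR adjusted p = 0.012) became 4.38 without Addback EDTA replicate 2, and the adjusted p became 0.0515 without Vector EDTA replicate 1, 0.0587 without Addback NA replicate 1 and 0.0556 without Addback NA replicate 2. KRT81, a hair-type keratin and the most abundant gene called higher, had 4262 and 4258 CPM in Vector NA, 1306 and 1559 in Vector EDTA, 1726 and 1687 in Addback NA and 3385 and 6131 in Addback EDTA. Its response difference was 3.05 ± 0.57 (edgeR adjusted p = 0.0089), and Addback was below Vector in NA and above it in EDTA with no overlap.

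**Figure D2:**
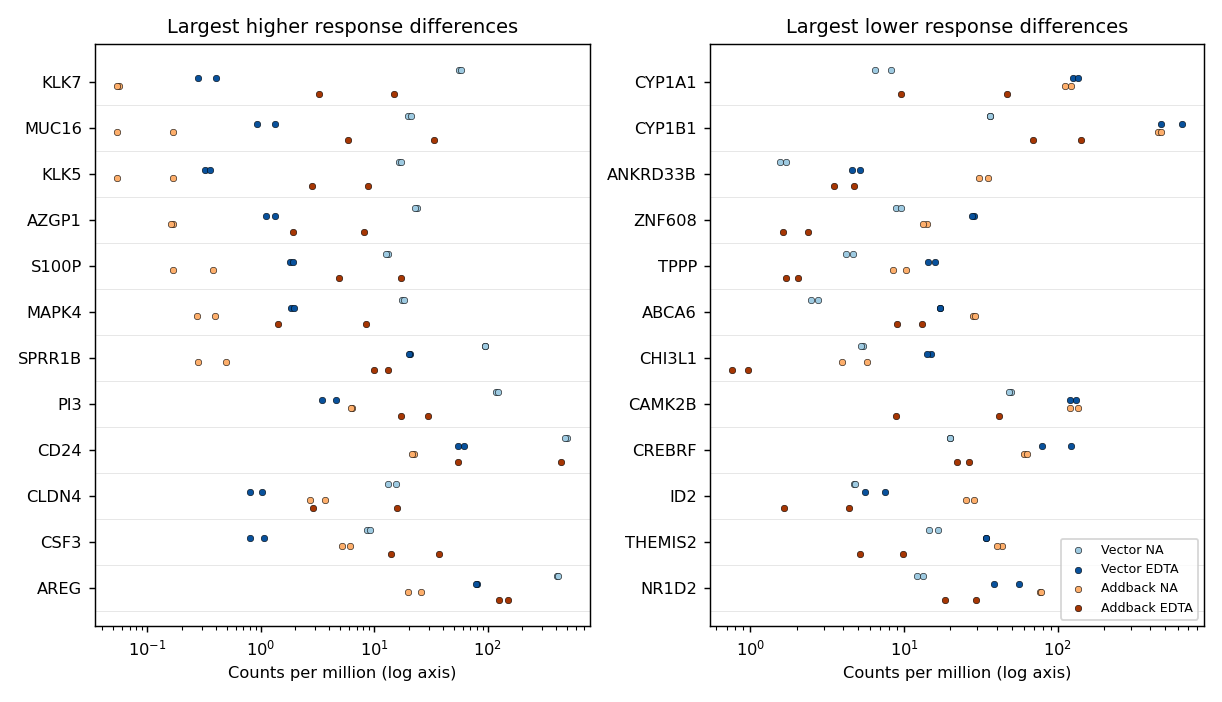
CPM per library (log axis) of the 12 genes with the largest higher (left) and the 12 with the largest lower (right) response differences, with 2 points for each of the 4 groups. In the left panel Vector NA (light blue) exceeds Vector EDTA and Addback EDTA exceeds Addback NA in each gene except 1 library of CLDN4, as for AREG with 409 and 411, 80.3 and 79.0, 19.9 and 25.9, and 125 and 150 CPM in the order of the legend. In the right panel the order within each derivative is the reverse.

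EGF receptor ligands drive the growth of MCF10-A cells, and ERK, which acts below the receptor, induces its own inhibitors. Of 24 genes of EGF receptor ligands and ERK feedback, 9 were higher and none lower, with a median of 0.60, where 13.4% of all genes tested were higher. The difference lay mainly in Vector, where 11 of the 24 were called lower with EDTA and none higher (median effect -0.72), against 3 higher and 1 lower in Addback (median effect 0.01). AREG, amphiregulin, had the levels given with the plot of the largest genes, with Vector EDTA below Vector NA, Addback EDTA above Addback NA and no overlap between any 2 groups. Its response difference was 4.95 ± 0.52 (edgeR adjusted p = 5.11e-04). EPGN, epigen, had 154 and 158 CPM in Vector NA, 34.0 and 34.0 in Vector EDTA, 22.8 and 23.8 in Addback NA and 52.9 and 70.6 in Addback EDTA, a response difference of 3.60 ± 0.18. EREG, epiregulin, followed at 2.72 ± 0.44. These 3 ligand genes lie next to each other on chromosome 4, from 74308473 to 74455009. DUSP4, a phosphatase that switches off ERK in the nucleus, had 164 and 160 CPM in Vector NA, 51.6 and 55.6 in Vector EDTA, 38.3 and 42.6 in Addback NA and 141 and 149 in Addback EDTA. The treated Addback libraries were thus near the untreated Vector libraries, and the response difference was 3.44 ± 0.44. ETV5, a transcription factor induced by ERK, differed less, at 0.75 ± 0.12, with an effect of -0.68 in Vector and 0.07 in Addback. MAPK4, an atypical MAP kinase, had a response difference of 7.11 ± 1.03 and CSF3, a neutrophil growth factor, of 5.42 ± 0.96. In both genes Addback EDTA replicate 2, at 8.47 and 37.2 CPM, was above replicate 1, at 1.403 and 13.9.

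Cell cycle genes were lower with EDTA in Vector and higher in Addback. Of 24 tested genes of G2/M and mitosis, 21 were higher, none lower and 3 not called, with a median of 1.06 against 0.005 over all genes. Of 25 genes of G1/S and replication, 15 were higher, none lower and 10 not called, with a median of 0.67. Among all genes tested 13.4% were higher. The fitted effect was above 0 in Addback and below 0 in Vector in 24 of the 24 G2/M genes and in 22 of the 25 G1/S genes, where 30.5% of all genes tested had that pattern. The list medians were 0.49 in Addback and -0.52 in Vector for G2/M and 0.40 and -0.39 for G1/S. With 1 library left out, from 20 to 24 G2/M genes and from 11 to 21 G1/S genes were higher.

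RRM2, the regulated subunit of ribonucleotide reductase, measured 261 and 268 CPM in Vector NA, 112 and 105 in Vector EDTA, 161 and 171 in Addback NA and 299 and 389 in Addback EDTA. Vector EDTA was the lowest group and Addback EDTA the highest, with no overlap, and the response difference was 2.34 ± 0.20 (edgeR adjusted p = 1.41e-05). E2F2, a transcription factor of S-phase entry, had 15.8 and 14.1 CPM in Vector NA, 2.78 and 3.23 in Vector EDTA, 9.85 and 7.80 in Addback NA and 17.3 and 18.8 in Addback EDTA, a response difference of 3.34 ± 0.29. CDC25A, a phosphatase that activates cyclin-dependent kinases, followed at 2.11 ± 0.22, and TYMS, thymidylate synthase, at 1.06 ± 0.14. Among mitotic genes, PLK1, a kinase of mitotic entry and spindle assembly, had 235 and 229 CPM in Vector NA, 151 and 159 in Vector EDTA, 65.5 and 63.8 in Addback NA and 101 and 106 in Addback EDTA. Addback stayed below Vector under both treatments, and the gap was smaller in EDTA (-0.59) than in NA (-1.84). KIF23, a motor of cytokinesis, had 123 and 121 CPM in Vector NA, 69.7 and 65.1 in Vector EDTA, 76.3 and 74.8 in Addback NA and 105 and 112 in Addback EDTA, a response difference of 1.38 ± 0.15. BUB1, a spindle checkpoint kinase, and TPX2, a spindle assembly factor, had 1.17 ± 0.13 and 1.16 ± 0.12.

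Promoters are shown for 2 of these mitotic genes because the list moved together. Mitotic promoters commonly carry the cell cycle homology region, whose core is TTTGAA. In RefSeq promoter windows on GRCh38.p14, the 250 bases before the start site held TTTGAA on either strand in 11 of the 19 G2/M genes that had an entry (57.9%), and in 16.1% of all 27305 genes with an entry. Counted by promoter, 12 of 24 and 13.3% held it. As the list was made of mitotic genes, the higher share is no independent finding. A match is a description of the letters and not a binding site. KIF23 is read from the plus strand of chr15:69414099-69414348, where the match begins 55 bases before the start, and PLK1 from the plus strand of chr16:23678639-23678888, with the match 29 bases before the start. Capitals mark the match, on the strand shown.
KIF23: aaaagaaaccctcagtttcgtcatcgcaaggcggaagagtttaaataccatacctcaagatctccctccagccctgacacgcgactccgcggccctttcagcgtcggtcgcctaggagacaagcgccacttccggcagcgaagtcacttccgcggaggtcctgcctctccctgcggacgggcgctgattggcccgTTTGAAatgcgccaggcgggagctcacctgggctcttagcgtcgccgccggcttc
PLK1: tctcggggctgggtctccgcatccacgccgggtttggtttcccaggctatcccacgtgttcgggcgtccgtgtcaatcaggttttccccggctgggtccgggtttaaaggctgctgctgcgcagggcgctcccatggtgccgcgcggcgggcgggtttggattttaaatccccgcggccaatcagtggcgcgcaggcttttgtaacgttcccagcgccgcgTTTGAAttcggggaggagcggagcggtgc

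Genes of the unfolded protein response, by which the endoplasmic reticulum raises its chaperones, had a negative median response difference. Of 19 tested genes, 8 were lower, none higher and 11 not called, with a median of -0.34, where 10.8% of all genes tested were lower. The number of lower genes was 5 without Vector NA replicate 2 and 13 without either B4-4 NA library. Fitted effects were below 0 in Addback and above 0 in Vector in 10 of the 19 genes, against 29.1% of all genes tested. The difference lay mainly in Vector, where 10 genes were called higher with EDTA and none lower (median effect 0.33). In Addback none was called higher and 5 were called lower (median effect -0.05), and 8 of the 19 fitted effects were above 0. HSPA5, the major chaperone of the endoplasmic reticulum, measured 486 and 490 CPM in Vector NA, 1224 and 1262 in Vector EDTA, 1083 and 1098 in Addback NA and 796 and 748 in Addback EDTA. Both untreated Addback libraries were thus nearer to treated than to untreated Vector, no groups overlapped, and the response difference was -1.85 ± 0.15 (edgeR adjusted p = 1.07e-05). DNAJB9, a co-chaperone of HSPA5, had 20.9 and 21.3 CPM in Vector NA, 72.8 and 59.5 in Vector EDTA, 42.1 and 45.2 in Addback NA and 22.4 and 17.9 in Addback EDTA, a response difference of -2.76 ± 0.21. XBP1, a transcription factor of this response, had 169 and 174 CPM in Vector NA, 256 and 267 in Vector EDTA, 234 and 227 in Addback NA and 148 and 122 in Addback EDTA. Its value was -1.38 ± 0.14, and that of DNAJC3, another co-chaperone, was -1.28 ± 0.17.

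The promoters of HSPA5 and XBP1 are shown for the endoplasmic reticulum stress element, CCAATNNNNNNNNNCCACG, through which ATF6 is known to act. The 250 bases before the start held it on either strand in 7 of 18 genes of the list with an entry (38.9%) and in 0.1% of all 27305 genes with an entry. The list was drawn from well known targets of the response, so that share is no independent finding. The window of HSPA5 is chr9:125241344-125241593 on the minus strand and that of XBP1 is chr22:28800570-28800819 on the minus strand, which is 1 of its 2 listed windows. Both are RefSeq sequences on GRCh38.p14, with the element in capitals, beginning 66 bases before the start in HSPA5 and 52 in XBP1.
HSPA5: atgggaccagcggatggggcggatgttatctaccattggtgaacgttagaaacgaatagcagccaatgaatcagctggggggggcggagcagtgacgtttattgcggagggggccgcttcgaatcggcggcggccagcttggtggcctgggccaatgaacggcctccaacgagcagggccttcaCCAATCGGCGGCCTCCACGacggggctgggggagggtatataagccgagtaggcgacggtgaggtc
XBP1: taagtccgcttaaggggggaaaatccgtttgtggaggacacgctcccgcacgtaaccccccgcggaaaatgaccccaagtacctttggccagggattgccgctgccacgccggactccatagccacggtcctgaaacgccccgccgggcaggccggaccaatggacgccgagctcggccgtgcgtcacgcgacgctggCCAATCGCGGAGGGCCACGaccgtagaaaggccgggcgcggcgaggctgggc

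Among genes averaging at least 5 CPM, the largest negative response differences were those of CYP1A1 and CYP1B1, monooxygenases induced by the aryl hydrocarbon receptor, a ligand-activated transcription factor. Of 11 genes linked to this receptor, 6 were lower, 1 was higher (EREG) and 4 were not called, with a median of -0.68. Over all genes tested, 10.8% were lower and 13.4% higher. CYP1A1 (chromosome 15, 74719542 to 74725610) measured 6.50 and 8.23 CPM in Vector NA, 125 and 135 in Vector EDTA, 121 and 111 in Addback NA and 46.7 and 9.61 in Addback EDTA. Untreated Vector was low and treated Vector high, and Addback showed the reverse, with Addback EDTA replicate 2 the lower of its pair. The response difference was -6.18 ± 0.91 (edgeR adjusted p = 0.0039). CYP1B1 had 36.1 and 36.0 CPM in Vector NA, 641 and 470 in Vector EDTA, 450 and 466 in Addback NA and 141 and 68.5 in Addback EDTA, a response difference of -6.07 ± 0.43, though its reads cannot be told from those of its antisense neighbour. TIPARP, which represses the receptor, was at -2.71 ± 0.26. AHRR, the receptor's repressor protein, rose from 4 to 74 counts with EDTA in Vector, a ratio of 15.6 (exact 95% counting interval 5.85 to 58.9), and had 1.12 and 1.30 CPM in Addback NA against 0.468 and 0.512 in Addback EDTA. The promoter of CYP1A1, on the minus strand of chr15:74725529-74725778 (RefSeq, GRCh38.p14), is shown with the core of the receptor's response element, GCGTG, in capitals. On either strand that core stood in 5 of 9 genes of the list with an entry (55.6%) and in 36.2% of all genes with an entry, so it is common. Counted by promoter the shares were 46.2% and 32.2%. The match begins 57 bases before the start.
CYP1A1: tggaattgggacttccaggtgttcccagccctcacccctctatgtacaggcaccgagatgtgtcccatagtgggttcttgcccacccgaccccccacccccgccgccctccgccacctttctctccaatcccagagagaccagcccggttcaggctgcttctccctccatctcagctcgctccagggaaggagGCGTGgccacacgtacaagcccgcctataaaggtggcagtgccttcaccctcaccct

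Other large negative values came from genes with varied functions. ZNF608, a zinc finger protein, had 8.80 and 9.51 CPM in Vector NA, 28.3 and 27.6 in Vector EDTA, 14.1 and 13.2 in Addback NA and 1.64 and 2.39 in Addback EDTA, so that treated Vector was the highest group and treated Addback the lowest. Its response difference was -4.36 ± 0.26 (edgeR adjusted p = 1.95e-06). CREBRF, a regulator of the stress factor CREB3, had 19.7 and 19.8 CPM in Vector NA, 122 and 78.9 in Vector EDTA, 60.5 and 63.2 in Addback NA and 22.0 and 26.4 in Addback EDTA, a value of -3.70 ± 0.27. NR1D2, a nuclear receptor of the circadian clock, was at -3.59 ± 0.54. ABCA6, a transporter of the ABC family, and TPPP, a tubulin-binding protein, were both at -4.09, with SE 0.31 and 0.32. CHI3L1, a secreted chitinase-like protein, was at -3.93 ± 0.47 and THEMIS2 at -3.60 ± 0.35. ANKRD33B was at -4.56 ± 0.71, with 35.0 and 30.7 CPM in Addback NA against 4.74 and 3.53 in Addback EDTA and an effect in Vector, 1.57, that was not called. CAMK2B, a subunit of a calmodulin-dependent kinase, was at -3.71 ± 0.85 (edgeR adjusted p = 0.021), with Addback EDTA libraries at 41.2 and 8.81 CPM. Its adjusted p rose to 0.0897 and 0.0935 without Vector NA replicate 1 or 2, 0.0584 and 0.0576 without Vector EDTA replicate 1 or 2, and 0.0587 and 0.0616 without Addback NA replicate 1 or 2, and was 0.0525 without the filter on low counts and 0.0508 in the 8 libraries alone.

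NRF2 is a transcription factor whose programme supplies glutathione and thioredoxin. Of 20 tested genes of that programme, 8 were lower, none higher and 12 not called, with a median of -0.41, where 10.8% of all genes tested were lower. The number of lower genes was 4 without Vector NA replicate 1, without Vector NA replicate 2 or without Addback NA replicate 1, and 5 without Vector EDTA replicate 2. GCLC, the catalytic subunit of the first enzyme of glutathione synthesis, measured 71.9 and 67.8 CPM in Vector NA, 90.8 and 77.1 in Vector EDTA, 296 and 257 in Addback NA and 96.1 and 106 in Addback EDTA. Addback NA stood far above the other groups, and the response difference was -1.72 ± 0.16 (edgeR adjusted p = 2.92e-05). TXNRD1, thioredoxin reductase, had 80.5 and 82.0 CPM in Vector NA, 98.3 and 98.7 in Vector EDTA, 578 and 453 in Addback NA and 153 and 258 in Addback EDTA, a response difference of -1.60 ± 0.28. OSGIN1, a growth inhibitor induced by oxidative stress, was at -3.43 ± 0.46, and NFE2L2, the gene of NRF2 itself, at -1.16 ± 0.17. Of the other called members, HMOX1, heme oxygenase, NQO1, TKT and AKR1C1 were lower.

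Of 16 tested genes of ferroptosis and iron handling, 6 were lower, 3 higher and 7 not called, where 10.8% of all genes tested were lower and 13.4% higher, so the 3 higher genes were near the share of all genes. The lower genes numbered 3 without Vector NA replicate 1 or without Vector EDTA replicate 2. TFRC, the transferrin receptor, had 96.2 and 92.6 CPM in Vector NA, 170 and 156 in Vector EDTA, 703 and 688 in Addback NA and 427 and 435 in Addback EDTA. Addback was higher under both treatments, and the response difference was -1.48 ± 0.19. FTH1, the heavy chain of ferritin, was at -0.99 ± 0.14 and NCOA4, the receptor that delivers ferritin for breakdown, at -0.83 ± 0.12. PROM2, prominin 2, a membrane protein tied to the export of ferritin, was among the 3 higher genes, with ACSL4 and AIFM2. It measured 40.4 and 40.8 CPM in Vector NA, 4.73 and 4.48 in Vector EDTA, 5.15 and 4.23 in Addback NA and 4.56 and 4.21 in Addback EDTA. Vector NA alone was high and the other 3 groups overlapped. The response difference of 3.04 ± 0.23 (edgeR adjusted p = 6.18e-06) therefore rested on Vector, where the effect was -3.14, with an effect of -0.10 in Addback.

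**Figure D3:**
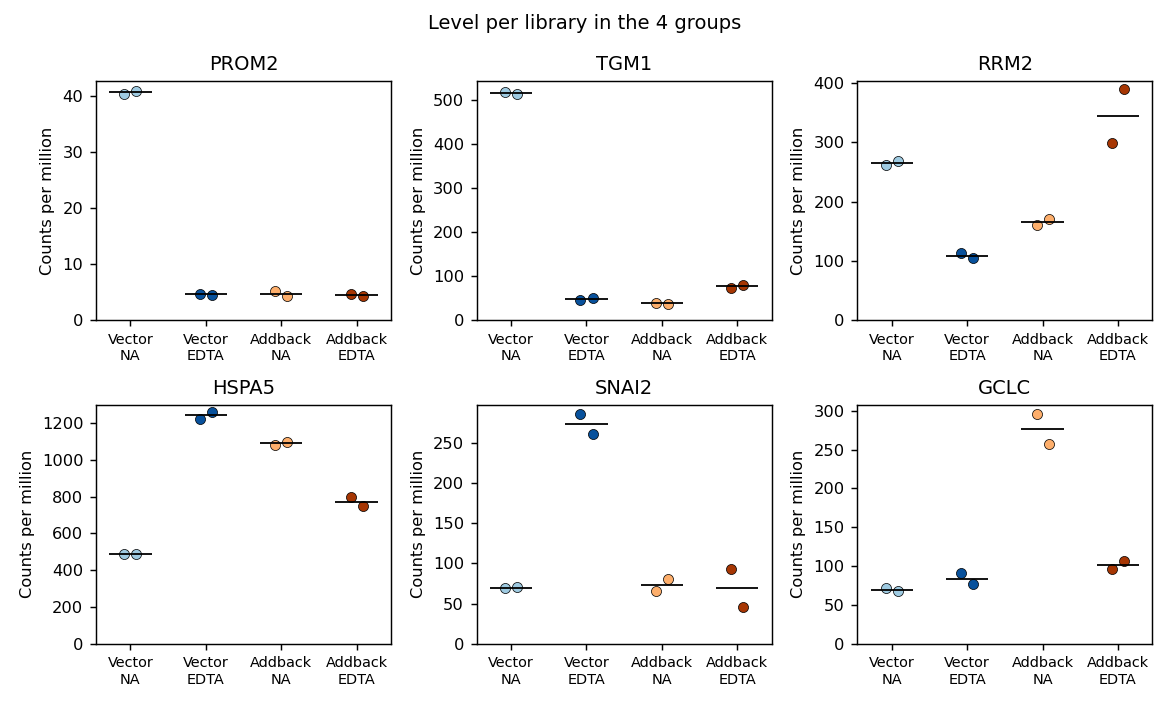
CPM of 6 genes in each library (points), with the mean of the 2 libraries as a bar, in the 4 groups. PROM2 and TGM1 are high in Vector NA, SNAI2 in Vector EDTA and GCLC in Addback NA, while RRM2 and HSPA5 move in opposite directions in the 2 derivatives.

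The amino acid response controlled by ATF4 did not move as a block. Of 28 tested genes, 6 were higher, 7 lower and 15 not called, with a median of -0.24, where 13.4% and 10.8% of all genes tested were higher and lower. The lower count was 2 without Vector NA replicate 1, Vector NA replicate 2, Vector EDTA replicate 1 or Addback NA replicate 1. It was 3 without Addback NA replicate 2 or either B4-4 EDTA library, and 4 without Vector EDTA replicate 2 or either Addback EDTA library. The higher genes included TRIB3, a pseudokinase, at 1.88 ± 0.15, STC2, a secreted glycoprotein, at 2.08 ± 0.20, and CHAC1, which degrades glutathione, at 5.38 ± 0.69. CHAC1 had 11.8 and 13.1 CPM in Vector NA, 0.324 and 0.532 in Vector EDTA, 1.62 and 0.596 in Addback NA and 2.28 and 0.967 in Addback EDTA, so that the Addback groups overlapped and Vector NA stood alone. PHGDH, the first enzyme of serine synthesis, was lower at -1.97 ± 0.21, with 148 and 149 CPM in Vector NA, 191 and 212 in Vector EDTA, 177 and 172 in Addback NA and 67.9 and 52.1 in Addback EDTA. Here Addback EDTA stood alone, below the other groups.

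**Figure D4:**
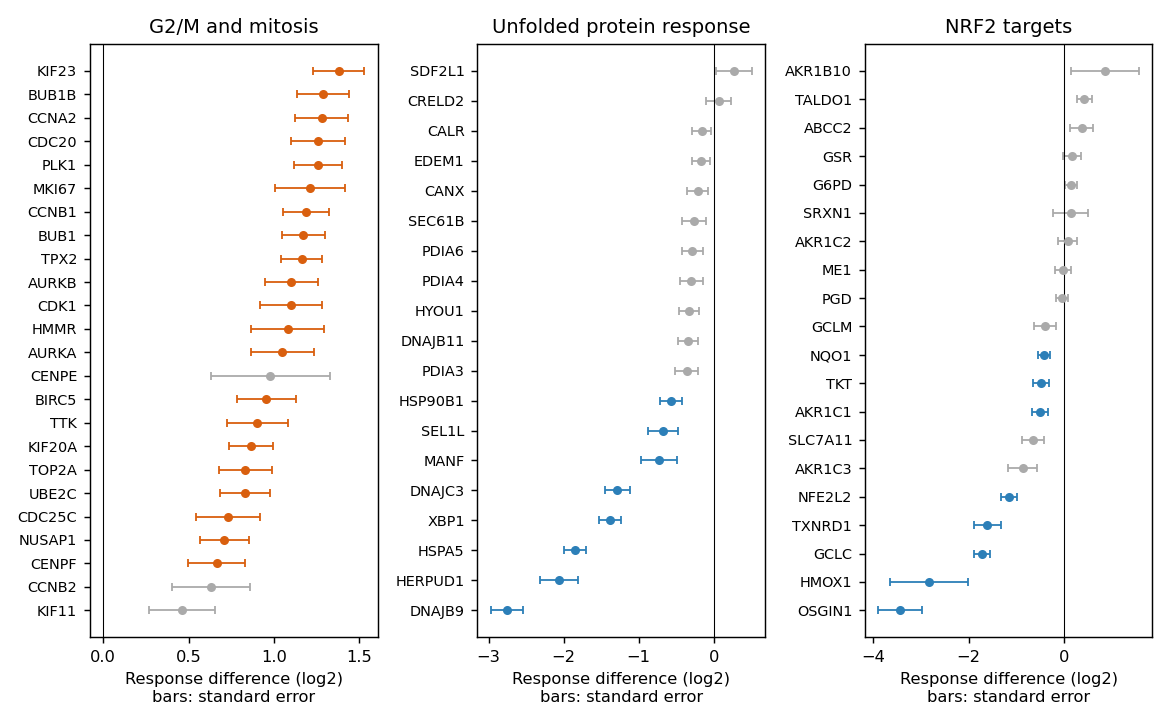
Response difference (log2) of each tested gene of 3 lists, with bars of 1 standard error, orange where called higher, blue where called lower and grey where not called. All 24 genes of G2/M and mitosis lie above 0, and no gene of the unfolded protein response or NRF2 lists is called higher.

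Genes of the matrix and mesenchymal lists were called lower in the response difference more often than the 10.8% of all genes tested. Of 25 genes of matrix and collagen-binding integrins, 10 were lower, none higher and 15 not called, with a median of -0.93, and of 23 genes of TGF-beta signalling and the epithelial-mesenchymal transition, 8 were lower and none higher, with a median of -0.42. Up to 3 of the latter and 2 of the former were higher in a fit without 1 library. THBS1, thrombospondin, measured 78.9 and 80.0 CPM in Vector NA, 255 and 254 in Vector EDTA, 966 and 628 in Addback NA and 342 and 380 in Addback EDTA. The response difference was -2.83 ± 0.24 (edgeR adjusted p = 1.56e-05), with treated Vector and treated Addback closer than the untreated groups. COL6A1, a chain of type VI collagen, had 6.05 and 6.94 CPM in Vector NA, 9.22 and 10.02 in Vector EDTA, 39.7 and 39.3 in Addback NA and 10.99 and 12.7 in Addback EDTA, a value of -2.30 ± 0.21. SPARC, a matrix protein that binds collagen, was at -2.32 ± 0.29 and COL4A1, a chain of basement membrane collagen, at -1.66 ± 0.27.

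SNAI2, the transcription factor SLUG, had 69.2 and 70.3 CPM in Vector NA, 285 and 261 in Vector EDTA, 65.2 and 80.3 in Addback NA and 93.4 and 45.7 in Addback EDTA. Only Vector EDTA stood apart, and the response difference was -2.04 ± 0.37 (edgeR adjusted p = 0.0044). CDH2, N-cadherin, had 8.24 and 6.94 CPM in Vector NA, 28.5 and 27.5 in Vector EDTA, 53.6 and 51.4 in Addback NA and 25.1 and 51.1 in Addback EDTA, a value of -2.34 ± 0.41, and its 2 Addback EDTA libraries differed. ZEB2, a repressor of E-cadherin, was at -3.09 ± 0.53 and BAMBI, a decoy receptor of TGF-beta signals, at -1.72 ± 0.33. ID2, an inhibitor of helix-loop-helix factors, had 4.71 and 4.78 CPM in Vector NA, 7.46 and 5.58 in Vector EDTA, 25.1 and 28.4 in Addback NA and 4.39 and 1.65 in Addback EDTA. Its response difference was -3.61 ± 1.02 (edgeR adjusted p = 0.039). The adjusted p was 0.133 and 0.132 without Vector NA replicate 1 or 2, 0.114 and 0.0747 without Vector EDTA replicate 1 or 2, 0.0858 and 0.0932 without Addback NA replicate 1 or 2, 0.117 without Addback EDTA replicate 2 and 0.0742 without either B4-4 EDTA library, and 0.123 without the filter on low counts.

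Fibroblast markers differed between the same libraries. Summed over 11 markers they were at 28.8 and 26.9 CPM in Vector NA, 38.5 and 39.0 in Vector EDTA, 95.3 and 94.8 in Addback NA and 58.6 and 150.0 in Addback EDTA. COL3A1 and COL1A2 were at 0 or at most 0.154 CPM in every library and THY1 at most 0.168. Among all genes tested, 10.8% had a called lower response difference. Of 7 tested markers, 3 had a called lower response difference (POSTN, DCN and COL1A1), with 1 called without Vector NA replicate 2 or either Addback NA library, and 5 without Addback EDTA replicate 1. POSTN, periostin, rose from 2 to 88 counts with EDTA in Vector, a ratio of 37.2 (exact 95% counting interval 9.99 to 312), and had 10.8 and 9.81 CPM in Addback NA against 2.98 and 2.67 in Addback EDTA. FAP, fibroblast activation protein, did not pass and was not lower (2.18 ± 1.30), with 11.1 and 10.2 CPM in Vector NA, 5.47 and 5.36 in Vector EDTA, 16.8 and 17.9 in Addback NA and 14.1 and 66.0 in Addback EDTA. Without both B4-4 groups and Addback EDTA replicate 2, 1 marker was called higher and 5 lower. DCN, decorin, had 1.18 and 0.771 CPM in Vector NA, 10.6 and 8.38 in Vector EDTA, 19.0 and 19.3 in Addback NA and 17.4 and 51.9 in Addback EDTA, a response difference of -2.43 ± 0.69 (edgeR adjusted p = 0.031). That adjusted p became 0.0708 and 0.124 without Vector NA replicate 1 or 2, 0.0839 without Vector EDTA replicate 1, 0.074 and 0.0731 without Addback NA replicate 1 or 2, 0.077 and 0.0788 without B4-4 NA replicate 1 or 2, and 0.11 in the 8 libraries alone. COL1A1, a chain of type I collagen, was at -1.10 ± 0.29 (edgeR adjusted p = 0.017). Its adjusted p became 0.0641 without Vector NA replicate 2, 0.0634 without Vector EDTA replicate 2, 0.0603 and 0.0502 without Addback NA replicate 1 or 2, and 0.0514 without Addback EDTA replicate 2. The part of such cells in the matrix and mesenchymal results was not tested. Endothelial markers summed to between 12.3 and 34.7 CPM and leukocyte markers to between 19.96 and 63.0 CPM, with CDH5, EMCN, CD3E and LYZ at 0 in every library. Nearly all of these sums came from PECAM1 (11.6 to 34.2 CPM), CD14 (8.59 to 54.6) and CSF1R (7.75 to 11.6). None of them had a called response difference. CD14 had 54.6 and 47.5 CPM in Addback NA, 35.3 and 8.59 in Addback EDTA and at most 14.1 in Vector.

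Of 16 tested tight junction genes, 5 were higher, 2 lower and 9 not called, where 13.4% of all genes tested were higher and 10.8% lower, so the lower genes were near the share of all genes, and 8 were higher without Addback EDTA replicate 1. CLDN4, a claudin of tight epithelia, had 13.2 and 15.5 CPM in Vector NA, 1.02 and 0.798 in Vector EDTA, 3.69 and 2.71 in Addback NA and 2.87 and 15.9 in Addback EDTA. The response difference was 5.53 ± 0.97 (edgeR adjusted p = 0.0048), with Addback EDTA replicate 1 inside the range of Addback NA and replicate 2 far above it. CGN, cingulin, was at 5.21 ± 0.77, CLDN7 at 1.69 ± 0.27 and CRB3, a protein of the apical polarity complex, at 1.39 ± 0.25. TJP1, the scaffold ZO-1, was lower at -1.06 ± 0.15, with 169 and 163 CPM in Vector NA, 175 and 162 in Vector EDTA, 318 and 275 in Addback NA and 132 and 157 in Addback EDTA. Of 10 desmosome genes, 2 were higher (DSC2 and PKP3), 2 lower and 6 not called, and the higher count was 0 without Vector NA replicate 2 or Addback NA replicate 2 and 1 without any of 7 other libraries. DSC3, a desmosomal cadherin, was lower at -1.15 ± 0.15 and had 276 and 271 CPM in Addback EDTA against 501 to 619 CPM in the 6 other libraries. PKP2, a desmosomal plaque protein, was at -0.80 ± 0.19.

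Of 15 tested hemidesmosome genes, 3 were higher and 12 not called, where 13.4% of all genes tested were higher and 10.8% lower. The higher count was 1 without Vector NA replicate 2 or Vector EDTA replicate 1 and 7 without either B4-4 NA library. ITGB4 measured 1775 and 1780 CPM in Vector NA, 1678 and 1850 in Vector EDTA, 1060 and 1080 in Addback NA and 1264 and 1525 in Addback EDTA. Addback was below Vector in every library, and the response difference of 0.39 ± 0.40 did not pass the test (edgeR adjusted p = 0.53). It passed without B4-4 NA replicate 1 or 2, at 0.38 and 0.40 with edgeR adjusted p-values of 0.0288 and 0.0269. ITGA6 lay between 804 and 981 CPM in all 8 libraries, with overlapping groups and a value of -0.04 ± 0.18 (edgeR adjusted p = 0.89). PLEC, plectin, which ties hemidesmosomes to keratin, was higher at 1.20 ± 0.15, with 1317 and 1315 CPM in Vector NA, 932 and 1073 in Vector EDTA, 835 and 804 in Addback NA and 1395 and 1467 in Addback EDTA. Of 12 nectin and adherens junction genes, 3 were higher (PVR, CDH1 and CDH3), 1 lower (VCL) and 8 not called. The higher genes numbered 1 without Vector NA replicate 2, Vector EDTA replicate 1 or either Addback NA library, 5 without Addback EDTA replicate 1 and 6 without either B4-4 NA library. PVR, the poliovirus receptor of the nectin family, was at 1.20 ± 0.20. NECTIN4 had 16.5 and 14.5 CPM in Vector NA, 10.8 and 11.7 in Vector EDTA, 7.22 and 8.62 in Addback NA and 13.7 and 4.95 in Addback EDTA. Its 2 treated Addback libraries lay on either side of the untreated ones, and its value of 0.70 ± 0.49 did not pass the test (edgeR adjusted p = 0.34). Without Addback EDTA replicate 2 it was 1.26 and passed (edgeR adjusted p = 0.00645), and without Addback EDTA replicate 1 it was -0.20.

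Of 15 Notch pathway genes, 6 were lower, 1 higher (HES1) and 8 not called, where 10.8% of all genes tested were lower. There were 3 lower without Vector NA replicate 2, and of the 12 fits that leave out 1 library all but the 2 without a B4-4 NA library had no higher gene. JAG1, a Notch ligand, measured 77.1 and 77.3 CPM in Vector NA, 187 and 178 in Vector EDTA, 178 and 161 in Addback NA and 69.3 and 67.5 in Addback EDTA. Treated Addback was near untreated Vector and untreated Addback near treated Vector, and the response difference was -2.54 ± 0.17 (edgeR adjusted p = 3.85e-06). HES2, a repressor of the HES family, was at -3.36 ± 0.58 and NOTCH1 at -0.91 ± 0.21. Of 20 YAP and TAZ target genes, 5 were higher (against 13.4% of all genes tested), 2 lower and 13 not called. The higher count was 3 without either Vector NA library, either Vector EDTA library or Addback NA replicate 2, and the lower count was 1 without Vector EDTA replicate 1 or Addback NA replicate 2, 4 without either Addback EDTA library and 7 without either B4-4 NA library. AJUBA, a LIM protein that restrains the LATS kinases, was at 1.71 ± 0.13 and AXL, a receptor tyrosine kinase, at -1.52 ± 0.20.

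Chaperones of the HSP90 system were among the abundant genes that rose with EDTA in Addback. Of 16 heat shock genes, 5 had a higher and 3 a lower response difference, and 8 were not called, where 13.4% and 10.8% of all genes tested were higher and lower. The higher genes were 3 without either Vector NA library and 9 without Addback EDTA replicate 1, and 1 gene was lower without either Vector NA library or Addback NA replicate 1. HSP90AA1, the inducible HSP90, had 2062 and 2047 CPM in Vector NA, 1763 and 1662 in Vector EDTA, 2061 and 2276 in Addback NA and 3276 and 4224 in Addback EDTA. Addback EDTA was above all other groups, and the response difference was 1.05 ± 0.16 (edgeR adjusted p = 5.64e-04). HSP90AB1, the constitutive form, was at 0.44 ± 0.11 (edgeR adjusted p = 0.012), with an adjusted p of 0.0579 and 0.0631 without Vector NA replicate 1 or 2, and the 2 genes may share reads. HSPH1, of the HSP110 family, at 0.61 ± 0.12, and HSPE1, the mitochondrial co-chaperonin, at 0.85 ± 0.17, were also higher. Among translation factors, which were the most abundant genes called lower, EEF1A1 was at -0.55 ± 0.12, EEF2 at -0.58 ± 0.13 and PABPC1, the poly(A)-binding protein, at -0.67 ± 0.12. Of 29 cytosolic ribosomal protein genes, 2 were lower (RPL5 and RPL10) and 27 not called, with a median of -0.27. The lower count was 1 without either Vector NA library, Vector EDTA replicate 2, Addback NA replicate 2 or Addback EDTA replicate 2, 8 without Addback EDTA replicate 1 or B4-4 NA replicate 1, and 9 without B4-4 NA replicate 2.

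Metabolic genes showed few calls. FASN, fatty acid synthase, had 1629 and 1594 CPM in Vector NA, 954 and 1118 in Vector EDTA, 1253 and 1272 in Addback NA and 1659 and 2190 in Addback EDTA, a response difference of 1.25 ± 0.20. ACLY, which makes the acetyl-CoA for lipid synthesis, was at 1.37 ± 0.25. Of 17 genes of fatty acid and glycerolipid synthesis these 2 were higher and 1 lower (ELOVL5). Of 28 genes of glycolysis and hypoxia 4 were higher (PFKP, PFKL, PGK1 and PGAM1) and none lower. Of 24 proteasome genes 4 were higher and none lower, and of 25 respiratory chain genes none was called, with a median of 0.07. The shares of all genes tested were 13.4% higher and 10.8% lower. Without either B4-4 NA library the higher genes numbered 4 for fatty acid synthesis, 9 for glycolysis and 3 for the respiratory chain, and 9 or 10 for the proteasome, and 4 glycolysis genes were then lower. Without either Vector NA library they numbered 2 for glycolysis and 1 for the proteasome.

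The remaining lists differed in how many of their genes were called. Several had counts near the shares of all genes tested (13.4% higher and 10.8% lower), while tissue factor and plasminogen activation and, by less, the p53 targets were above both. Their counts changed with single libraries and are given with the range over the fits that leave out 1 library each. Of 21 genes of the cytokine and chemokine list 4 were higher (2 to 14) and IL24 was lower, with a median of 1.21. The higher genes were CSF3, TNF, IL1RN and NFKBIA, which encodes an inhibitor of NF-kB and no cytokine. The count of 14 came without B4-4 NA replicate 1, and that of 2 without Vector NA replicate 2, Vector EDTA replicate 1 or either Addback NA library. Of 25 interferon-induced genes 3 were higher (1 to 4) and 1 lower (0 to 2). Of 21 p53 targets 5 were higher (3 to 9) and 3 lower (3 to 6), and of 14 BCL2 family genes 3 were higher (1 to 4) and 1 lower (0 to 2). Of 21 immediate early genes none was higher (0 to 1) and 2 were lower (1 to 7), namely EGR2 and BTG2. Of 21 actin and SRF targets 1 was higher (0 to 6) and 3 were lower (1 to 6), among them SRF, the serum response factor, at -1.16 ± 0.17. Of 11 genes of tissue factor and plasminogen activation 3 were higher (0 to 3) and 4 lower (3 to 5). The low ends mostly came without a Vector NA library and the high ends without a B4-4 NA library or Addback EDTA replicate 1.

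**Figure D5:**
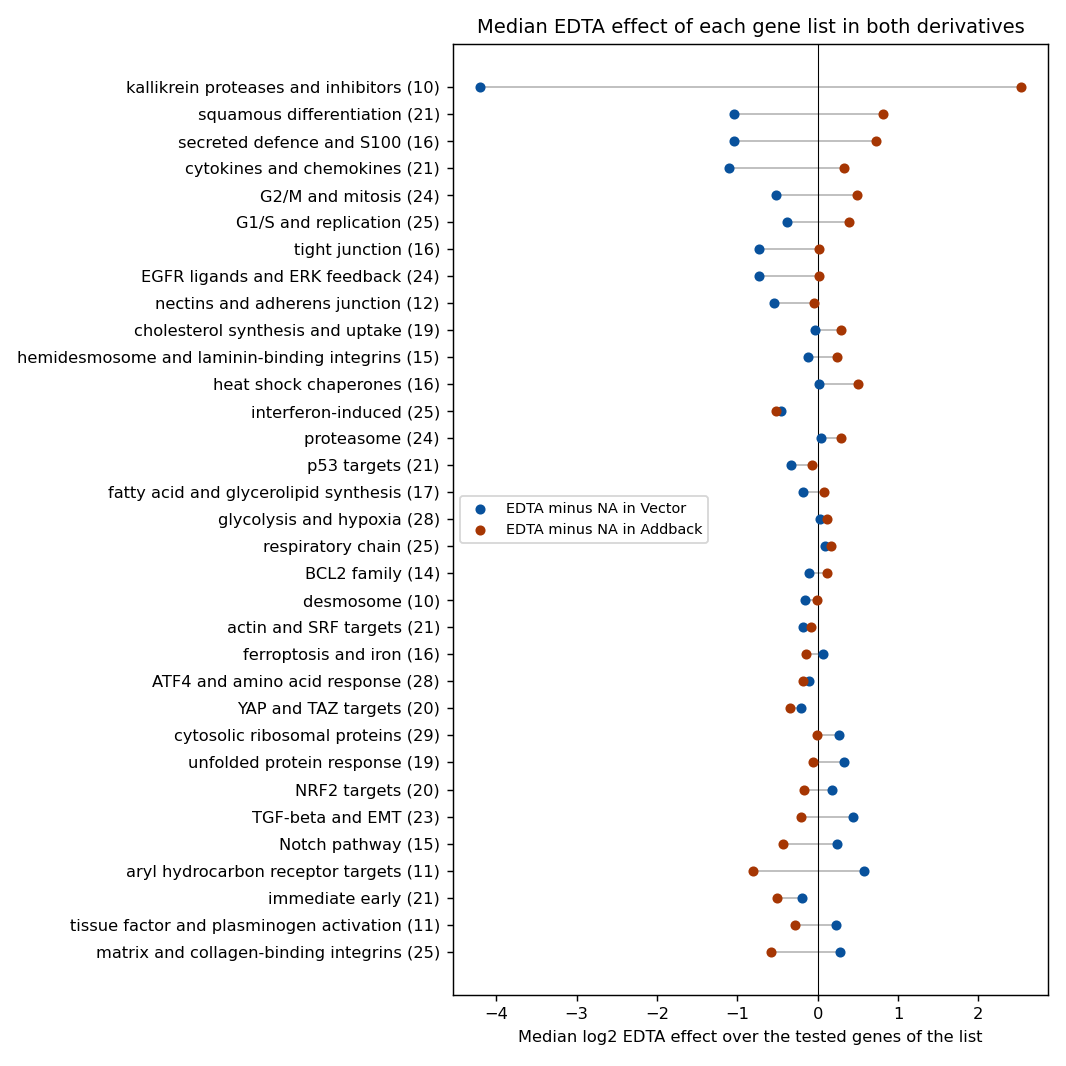
Median fitted log2 EDTA effect of each gene list in Vector (blue) and Addback (brown), with the number of tested genes in parentheses and genes that had a group without counts placed at the floor of 3 counts. The lists at the top, such as squamous differentiation (-1.04 in Vector, 0.82 in Addback), have negative medians in Vector and positive ones in Addback, and those at the bottom mostly the reverse.

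A small set of genes responded alike. Of the 121 genes called in the same direction with EDTA in both derivatives, 14 also had a called response difference. The genes named here were chosen after their values were seen, as those of at least 5 CPM with the smallest of the larger of both adjusted p-values, leaving out DNAJA1 and SAFB, whose calls were lost without some libraries. AP5B1, a subunit of an adaptor complex of late endosomes, measured 86.8 and 85.0 CPM in Vector NA, 21.4 and 25.8 in Vector EDTA, 149 and 114 in Addback NA and 32.4 and 37.1 in Addback EDTA. The EDTA effect was -1.92 ± 0.19 in Addback and -1.86 ± 0.20 in Vector, a difference of -0.06 ± 0.27. XDH, xanthine dehydrogenase, had effects of -0.70 ± 0.09 and -0.73 ± 0.09, and KIAA0040 of -0.76 ± 0.09 and -0.87 ± 0.09. AKR1C2, an aldo-keto reductase that may share reads with its relatives, was higher in both, by 0.87 ± 0.14 and 0.80 ± 0.15.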

How the data were processed

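PolyA RNA of the 12 samples was made into stranded libraries and read as 150 bp pairs, per the labels' protocols. The deposited values are raw read counts by gene, 1 column a sample. The submitters' processing notes name TopHat2 2.1.1, SAMtools 1.4.1, featureCounts 1.5.3 and the builds GRCh38, hg19 and hg38 without their roles. Neither the gene annotation used for counting nor its strand mode is stated there, so overlapping and antisense genes may share reads. Mitochondrially encoded genes hold no count in any library.

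From the deposited counts, genes were filtered with filterByExpr and 15749 of 58233 were tested with edgeR 4.0.16 (R 4.3.3). TMM factors and the robust quasi-likelihood fit used all 12 libraries and 6 group means, with no replicate block, and adjusted p-values are Benjamini-Hochberg over all genes tested. Every adjusted p in the text is from that test, and a gene is called, higher or lower, at an adjusted p under 0.05. Values after ± are standard errors of the fitted log2 difference, with 2 libraries per group. CPM values are per library after TMM scaling. Counting intervals are exact at 95% and cover counting error only. The members and the 38 gene lists were chosen with earlier results of these data known, some lists after values had been seen in earlier work on them, and no list was tested as a set. Genes named are the 12 largest in each direction with a mean of at least 5 CPM, the 3 most abundant in each direction, up to 4 of the smallest p in a list, and ITGB4, ITGA6, NECTIN4 and PROM2. Others, such as the shared responders, were chosen after their values were seen. Symbols were found for 15623 of the tested genes, and gene positions follow GENCODE release 29 (GRCh38).

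The same-numbered libraries of different groups deviated together at most weakly, so numbers were not used as pairs. Alternatives were other scaling, no filter, DESeq2 1.42.0, limma 3.58.1 (voom with sample quality weights), a replicate block, a 2-fold minimum, the 8 libraries alone, each library left out, and 2 further omissions chosen after seeing the data. On simulated counts for this comparison over 15252 genes, the test called 0% of genes changed 1.5-fold, 38% changed 2-fold, 72% changed 4-fold and 84% changed 8-fold, with 8 of 105 calls false. There all groups had the same mean, apart from 50 genes at each fold that were changed in Addback EDTA. Far more genes differed in the data, so these shares need not hold there.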

Additional observations from a re-analysis of the deposited data

Results flagged for a closer look

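The EDTA effects of Addback and Vector differed, by a test of the difference itself, in 3818 genes, and those named in the results are listed here by their log2 response difference because that test singles them out. None was weighed further. Among genes of squamous differentiation were TGM1 at 4.42, SPRR1B at 7.09, KRT16 at 4.13 and KRT6A at 1.88. Kallikrein and inhibitor genes were KLK5 at 11.24, KLK7 at 14.56 and PI3 at 6.80. Secreted genes were S100P at 8.09 and MUC16 at 11.56. Ligands of the EGF receptor and their feedback genes were AREG at 4.95, EREG at 2.72, EPGN at 3.60, DUSP4 at 3.44 and ETV5 at 0.75. Mitotic genes were PLK1 at 1.26, BUB1 at 1.17, TPX2 at 1.16 and KIF23 at 1.38. Genes of G1/S and replication were CDC25A at 2.11, E2F2 at 3.34, RRM2 at 2.34 and TYMS at 1.06. Genes of the unfolded protein response were HSPA5 at -1.85, DNAJB9 at -2.76, DNAJC3 at -1.28 and XBP1 at -1.38. Genes of the aryl hydrocarbon receptor were AHRR at -5.17, CYP1A1 at -6.18, CYP1B1 at -6.07 and TIPARP at -2.71. NRF2 genes were NFE2L2 at -1.16, GCLC at -1.72, TXNRD1 at -1.60 and OSGIN1 at -3.43. Iron genes were PROM2 at 3.04, FTH1 at -0.99, TFRC at -1.48 and NCOA4 at -0.83. Genes of the amino acid response were TRIB3 at 1.88, CHAC1 at 5.38, PHGDH at -1.97 and STC2 at 2.08. Matrix genes were COL4A1 at -1.66, COL6A1 at -2.30, SPARC at -2.32 and THBS1 at -2.83. Genes of TGF-beta signalling and the mesenchymal transition were SNAI2 at -2.04, ZEB2 at -3.09, CDH2 at -2.34, ID2 at -3.61 and BAMBI at -1.72. Fibroblast markers were COL1A1 at -1.10, DCN at -2.43 and POSTN at -6.92. Tight junction genes were CLDN4 at 5.53, CLDN7 at 1.69, TJP1 at -1.06, CGN at 5.21 and CRB3 at 1.39. Other junction genes were DSC3 at -1.15, PKP2 at -0.80, PLEC at 1.20 and PVR at 1.20. Notch and YAP genes were AJUBA at 1.71, AXL at -1.52, NOTCH1 at -0.91, JAG1 at -2.54 and HES2 at -3.36. Chaperones were HSPH1 at 0.61, HSP90AA1 at 1.05, HSP90AB1 at 0.44 and HSPE1 at 0.85. Lipid, glycolysis, cytokine and SRF genes were SRF at -1.16, CSF3 at 5.42, PGAM1 at 0.81, FASN at 1.25 and ACLY at 1.37. Genes of no list that were higher were AZGP1 at 9.12, CD24 at 6.57, KRT81 at 3.05 and MAPK4 at 7.11. Those that were lower were ABCA6 at -4.09, ANKRD33B at -4.56, CAMK2B at -3.71, CHI3L1 at -3.93, CREBRF at -3.70, EEF1A1 at -0.55, EEF2 at -0.58, NR1D2 at -3.59, PABPC1 at -0.67, THEMIS2 at -3.60, TPPP at -4.09 and ZNF608 at -4.36.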

How the results depend on the processing

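The count of 3818 genes with a called response difference ran from 2138 to 5346 when 1 library was left out, and in those fits 3817 or 3818 of the genes kept their sign and none was called with the opposite sign. It was 3801 with DESeq2's size factors in edgeR, 3736 with upper-quartile factors (46.1% of calls higher, against 55.3%), 4197 without the filter on low counts, 3598 with DESeq2, 4807 with voom and sample quality weights, 4660 in the 8 libraries alone and 2006 with a 2-fold minimum. With the replicate number as a block it was 3851, with 3677 of the 3818 kept. Deviations of same-numbered libraries correlated between -0.17 and 0.286 over 15 pairs of groups, so pairing by number was at most weak. With 2 libraries a group, this cannot exclude that same-numbered libraries were handled together. With 1 library left out, EDTA changed from 615 to 4319 genes in Addback and from 724 to 4020 in Vector, and Addback differed from Vector in 3137 to 7269 genes in NA and 2718 to 6216 in EDTA. With a 2-fold minimum these 4 counts were 827, 801, 2344 and 1500. With voom the Vector and NA counts were 4907 and 9353. After seeing the data, both B4-4 NA libraries were left out, which gave 4306 genes in Addback and 3983 in Vector, and both B4-4 groups with Addback EDTA replicate 2, which gave 5201 in Vector and 8218 in NA. The cause of these changes was not tested. ITGA6, not called, changed sign to 0.02 without Vector EDTA replicate 1, 0.09 without Addback EDTA replicate 2 and 0.0908 without that library and both B4-4 groups. NECTIN4, not called, changed to -0.20 without Addback EDTA replicate 1 and was 1.26 without replicate 2, with or without the B4-4 groups. Of 93 called genes named with values, 87 stayed called with any 1 library left out. With 2 libraries a group, no gene changed 1.5-fold was called in the simulated counts, where few genes were changed. In the data 2006 of the 3818 called genes reached 2-fold, so smaller differences were also called.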
